A study of Mus musculus with 12 samples.

Results

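The renin-angiotensin system genes described here are Agt, Ren1, Atp6ap2, Ace, Agtr1a, Agtr1b, Enpep and Mme. They were chosen by name, as the rows of the deposited kidney expression table whose mouse Ensembl identifiers belong to these symbols, and all 8 were found among its 21899 genes. Values are FPKM, fragments scaled by exon length and by library size, so levels can be set beside each other per exon length. That length joins the exons of all transcripts of a gene and can exceed the length of a single transcript. A gene was tested if it reached an FPKM of 0.3 in at least 3 libraries. This left 12897 genes, among them 7 of the 8, and Agtr1b was not tested.

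The system is a chain of cleavages that ends at a receptor. Renin, made in the kidney by juxtaglomerular cells of the afferent arteriole, cuts angiotensinogen to angiotensin I, and angiotensin-converting enzyme cuts that to angiotensin II, which narrows vessels and raises sodium reabsorption through type 1 receptors. Membrane peptidases of the proximal tubule brush border then trim or destroy the peptides, and drugs that block the converting enzyme or the receptor are a mainstay of treatment in diabetic kidney disease.

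Kidney messenger RNA was measured in 4 groups with 3 libraries each. The db/m-veh mice are lean carriers of 1 copy of the db allele of the leptin receptor, given vehicle, and serve as the normal controls. The db/db-veh mice carry the db allele on both chromosomes, become obese and diabetic, received vehicle and stand for diabetic nephropathy. The db/m-GABP-OE group has the genotype of the lean controls and is labelled as overexpressing GABP, and the db/db-GABP-KD group has the diabetic genotype and is labelled as a GABP knockdown. GABP is a transcription factor of the ETS family, with a DNA-binding alpha subunit and a beta subunit. All 4 groups thus carry at least 1 db allele. The sources used here do not give the cells in which GABP was altered, the agent used, or the age, sex and strain background of the mice. Each group drew on 6 mice, with the tissues of 3 mixed for an extraction, so a library is a pool. The sources also do not say if the pools behind the 3 libraries of a group share animals. If each pool held 3 mice, 3 separate pools would need more than 6, so some animals would then be shared. The libraries may thus not be independent, and p-values, which measure the spread between libraries, may be too small.

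Libraries held between 6778005 and 9697446 fragments, and mitochondrially encoded genes took between 48.0% (db/db-GABP-KD 1) and 86.0% (db/db-veh 2) of them. FPKM divides by all fragments, and the median log2 fold change of all tested genes was accordingly off 0, at -0.24 for the diabetic vehicle group over the lean one, 0.38 for GABP-OE over its lean control and 0.42 for GABP-KD over its diabetic control. Results are therefore also given after median of ratios scaling, which divides each library by its typical ratio to the others and brings these medians to 0.01, 0.04 and 0.00. The library db/db-GABP-KD 1 had the largest scaling factor, 1.71, and db/db-veh 2 the smallest, 0.527. Gabpa, the DNA-binding subunit, read 1.79, 2.32 and 2.54 FPKM in db/m-veh, 2.20, 2.17 and 1.63 in db/db-veh, 3.45, 3.35 and 3.71 in db/m-GABP-OE, and 6.62, 2.66 and 3.40 in the libraries labelled db/db-GABP-KD. In the libraries labelled knockdown Gabpa was thus above every db/db-veh library as deposited, against the label, as were 17.3% of all tested genes. Its log2 fold change was 0.84 (SE 0.33, limma adjusted p = 0.34), or 0.31 when scaled by median of ratios (limma adjusted p = 0.90). Once scaled, the groups overlapped, at 3.88, 3.01 and 3.73 against 2.40, 4.12 and 2.03 in db/db-veh. The beta subunit genes Gabpb1 and Gabpb2 were at 0.51 and 0.45 as deposited in this comparison (limma adjusted p = 0.46 and 0.37). Scaled, these 2 were at 0.049 and 0.18 (limma adjusted p = 0.99 and 0.95). In the libraries labelled overexpression Gabpa was above every db/m-veh library as deposited, as were 30.4% of all tested genes, at 0.57 (SE 0.33, limma adjusted p = 0.43). It overlapped them once scaled, at 0.19 (limma adjusted p = 1.00), with Gabpb1 at 0.28 and Gabpb2 at 0.13. No subunit gene passed the test in either comparison, so the names GABP-OE and GABP-KD stand below for what the libraries are labelled, not for a measured change of GABP.

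Because the study altered a DNA-binding factor, the 250 bases before each RefSeq transcription start (GRCm38.p6) were searched on both strands for the ETS core that GABP is known to bind and for 4 other elements: the TATA box, the CCAAT box, a shortened cAMP response element and the HOX/PBX element long known from the renin promoter. No 2 of the searched elements overlap in the sequences shown. The promoter table held 10 starts for 7 of the 8 genes, all but Agtr1a. The ETS core CCGGAAG stood in 0 of the 10, against 6.91% of all 32851 starts. TATAAA was found for 5 genes (Ren1, Agtr1b, Enpep, Agt and Ace), in 5 of the 10 starts, and occurs in 12.4% of all starts. CCAAT was found for 5 genes, in 6 of the 10 starts, and occurs in 33.8% of all starts. The shortened cAMP response element TGACGT was found for Atp6ap2 alone and occurs in 6.47%. The HOX/PBX element, taken as the bases TAATAAATCA that stand 65 to 56 bases before the Ren1 start, was thus found for Ren1 by construction, for no other of the genes, and occurs in 18 of all starts (0.0548%). The sequences that show these layouts are printed 5′ to 3′ on the strand of the gene, with the matches to any of the searched elements in capitals. For Ren1 only the stretches of 30 bases around its elements are given, because the GENCODE M21 gene model starts upstream of the RefSeq start. For the others the last 130 bases before the start are given.
Ren1 HOX/PBX window, chr1:133350599-133350628, plus strand: ggccctggggTAATAAATCAaagcagagcc
Ren1 TATA window, chr1:133350633-133350662, plus strand: atacatggtgtgTATAAAagaaggctcagg
Agt, chr8:124569707-124569836, minus strand: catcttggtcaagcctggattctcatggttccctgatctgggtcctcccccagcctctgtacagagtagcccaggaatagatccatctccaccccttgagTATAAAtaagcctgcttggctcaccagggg
Atp6ap2, chrX:12587629-12587758, plus strand: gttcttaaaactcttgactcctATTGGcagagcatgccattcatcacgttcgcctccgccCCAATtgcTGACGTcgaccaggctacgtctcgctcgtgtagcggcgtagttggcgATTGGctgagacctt
Ace, chr11:105967818-105967947, plus strand: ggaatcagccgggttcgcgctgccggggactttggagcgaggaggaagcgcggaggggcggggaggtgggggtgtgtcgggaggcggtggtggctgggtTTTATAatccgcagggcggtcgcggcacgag
Enpep, chr3:129332750-129332879, minus strand: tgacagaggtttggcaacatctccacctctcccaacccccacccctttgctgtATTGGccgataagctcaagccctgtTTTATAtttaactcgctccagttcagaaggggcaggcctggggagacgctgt

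The first base of TATAAA lay 29 bases before the start of Ren1 and 30 bases before that of Agt. Ace held the element at 31 bases and Enpep at 52 bases before the start, both on the opposite strand, which reads TTTATA in the sequences shown. Atp6ap2 had no TATAAA but 3 copies of CCAAT, at 108, 70 and 15 bases, of which those at 108 and 15 were on the opposite strand and read ATTGG, and TGACGT at 62 bases. In base composition Agt, with 55.6% G and C and 0 CpG pairs over its 250 bases, contrasted with the first Ace start (67.2%, 19 CpG pairs) and Atp6ap2 (59.2%, 20 CpG pairs), where the median of all starts was 52.4%. The second Ace start, inside the gene, had 58% G and C, 1 CpG pair, no TATAAA and 1 CCAAT on the opposite strand, at 25 bases. These are matches of letters, and whether any factor binds there was not measured.

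Agt (ENSMUSG00000031980, GRCm38 chromosome 8, 124556534 to 124569706, minus strand) encodes angiotensinogen, the only substrate of renin. It read 23.2, 12.8 and 19.0 FPKM in db/m-veh, 11.5, 6.93 and 37.1 in db/db-veh, 20.0, 23.7 and 46.3 in db/m-GABP-OE and 34.9, 24.3 and 22.8 in db/db-GABP-KD. The 2 vehicle groups had near-equal means, 18.3 ± 5.22 and 18.5 ± 16.3 (SD, n = 3), but the diabetic libraries lay on both sides of the lean ones, with db/db-veh 3 above all of them and the other two below. The means of the treated groups were higher, 30.0 ± 14.2 with GABP-OE and 27.3 ± 6.58 with the label GABP-KD, yet each overlapped its control group. Once scaled by median of ratios, the highest library was db/db-veh 3, at 46.3, and the lowest db/db-veh 1, at 12.5. Liver and fat also make angiotensinogen, and the summed level of 5 hepatocyte markers lay between 16.9 and 49.0 FPKM in db/m-veh, 19.4 and 31.3 in db/db-veh, 33.8 and 62.0 in db/m-GABP-OE, and 16.6 and 28.0 in db/db-GABP-KD. These sums rest mainly on Serpina1a, with group means of 13.8, 22.0, 13.6 and 18.5 FPKM in that order, and Ttr, with 10.7, 0.846, 33.2 and 0.212. Alb stood at only 0.940, 1.36, 1.71 and 1.54 FPKM. The 5 adipocyte markers summed to 0.116 to 0.859, 0.470 to 16.1, 7.09 to 19.2 and 0.153 to 1.24 FPKM in the same order. Ahsg was at 0 in every library of both db/db groups, and Lep in every library of all groups but db/db-veh. The part of these cells in the level of Agt was not tested.

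Ren1 (ENSMUSG00000070645, chromosome 1, 133350510 to 133360325, plus strand), renin itself, was the most unequal gene of the system. It read 34.3, 35.2 and 131 FPKM in db/m-veh, 3.92, 3.68 and 46.5 in db/db-veh, 19.4, 14.9 and 25.4 in db/m-GABP-OE and 256, 7.81 and 14.7 in db/db-GABP-KD. A single library thus stood high in 3 of the 4 groups, and only the GABP-OE libraries lay close together. As deposited, the highest library was 69.5 times the lowest, db/db-veh 2. After median of ratios it was 35.2 times the lowest, which was then db/db-veh 1, at 4.26. The group means were 66.7 ± 55.3, 18.0 ± 24.7, 19.9 ± 5.24 and 92.8 ± 141 FPKM (SD, n = 3), so that in both db/db groups the SD exceeded the mean. These values rest on 44 to 3581 fragments per library. All GABP-OE libraries were below all db/m-veh libraries, while the db/db-veh group overlapped both its lean control and the group labelled knockdown. Some mouse strains carry a near-identical copy of the gene, Ren2, and since the strain background is not given, reads of the 2 copies cannot be told apart here.

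Markers of the renin-making cell did not share one order with Ren1. Akr1b7 is an aldo-keto reductase of juxtaglomerular cells, and 27.2% of its exon bases overlap another gene. It was at 5.18 FPKM (56 fragments) in db/db-GABP-KD 1, its highest library and also that of Ren1. In db/db-veh 2, the lowest library for Ren1 as deposited but not after median of ratios, it was at 0. It was also at 0 in db/db-GABP-KD 3, where Ren1 stood at 14.7 FPKM. Gja5, the gap junction protein connexin 40 of juxtaglomerular and endothelial cells, peaked instead in db/m-veh 3 at 2.91 FPKM, the library with the second highest Ren1, and was at 0.515 in db/db-GABP-KD 1. The 6 juxtaglomerular and smooth muscle markers together had sums between 71.4 and 77.6 FPKM in the db/m-veh libraries, 18.1 and 73.2 in db/db-veh, 84.6 and 127 in db/m-GABP-OE, and 32.8 and 69.2 in db/db-GABP-KD. None of the 6 was at 0 in all 12 libraries. Between the vehicle groups the 5 tested markers, like Ren1, all had fitted values below 0. Gja5 read 0.282, 0 and 0.295 FPKM in db/db-veh against 0.913, 0.843 and 2.91 in db/m-veh, without overlap, where 14.4% of all genes lay entirely lower. The db/db-veh values of Gja5 rest on 24 fragments in all. Its log2 fold change was -1.46 (SE 0.37 and a limma adjusted p of 0.22). The median log2 fold change of the 5 tested was -0.77 against -0.24 for all genes, 0 of the 5 lay above that median of all genes, and 0 passed. As in any bulk tissue, fewer cells of a type and less RNA per cell cannot be told apart, and the part of cell makeup in the level of Ren1 was not tested. In db/db-veh, library 3 was also the highest of its group for Agt and for Klk1, the tubular kallikrein, which read 89.1, 82.9 and 538 FPKM.

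Atp6ap2 (ENSMUSG00000031007, chromosome X, 12587801 to 12617049, plus strand) encodes the (pro)renin receptor, which is also an accessory subunit of the proton pump of acidic vesicles. It read 3.80, 9.14 and 14.5 FPKM in db/m-veh, 6.98, 6.94 and 6.02 in db/db-veh, 8.37, 8.90 and 7.25 in db/m-GABP-OE and 34.2, 7.17 and 10.2 in db/db-GABP-KD. The value of db/db-GABP-KD 1 stood apart, as it did for Ren1, and the db/db-veh and GABP-OE libraries were tightly grouped as deposited. After median of ratios that library still held the highest level, 20.1, and db/m-veh 1 the lowest, 3.90, while db/db-veh read 7.59, 13.2 and 7.51 and was no longer tight.

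Ace (ENSMUSG00000020681, chromosome 11, 105967945 to 105989964, plus strand) encodes angiotensin-converting enzyme, found on endothelium and on the proximal tubule brush border. It read 9.29, 0.805 and 1.84 FPKM in db/m-veh, 2.98, 1.35 and 2.61 in db/db-veh, 5.86, 8.01 and 14.1 in db/m-GABP-OE and 2.31, 3.09 and 4.09 in db/db-GABP-KD. The GABP-OE libraries were above every other library of the study except db/m-veh 1, which lay among them. The ratio of the GABP-OE mean to the lean vehicle mean was 2.34 with all libraries. It was 7.04 when db/m-veh 1 was left out, 1.68 when db/m-veh 2 was and 1.85 when db/m-veh 3 was. Of the exon bases of Ace, 5.58% overlap Gm11651 on the opposite strand, and whether counting used strand is not given, so a small part of the reads may not be its own.

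Ace shared its high libraries with markers of the last proximal tubule segment, S3. The 5 S3 markers summed to 775, 162 and 193 FPKM in db/m-veh, 122, 51.9 and 128 in db/db-veh, 435, 601 and 921 in db/m-GABP-OE and 78.4, 34.8 and 51.9 in db/db-GABP-KD. Slc7a13, the S3 cystine transporter, was at 206 FPKM in db/m-veh 1 but at 11.1 and 10.5 in the other two, and at 69.6, 126 and 230 with GABP-OE. The same 4 libraries were therefore the highest for Ace, for Slc7a13 and for the summed markers. With GABP-OE the median log2 fold change of the 5 was 1.25, and 1 of the 5 passed, against 1.9% of all genes in either direction. That was Slc22a7, an organic anion transporter, at 2.18 (SE 0.45, limma adjusted p = 0.0198), and 0 passed after median of ratios. In db/db-veh the 5 had a median of -1.53, and 1 of the 5 passed at either scaling, against 0.093% of all genes as deposited and 0.171% scaled. That was again Slc22a7, which fell by 4.32 on the log2 scale (SE 0.45, limma adjusted p = 0.000311), also after median of ratios (limma adjusted p = 0.00221), while Ace was at -0.19 as deposited and 0.13 scaled. In the libraries labelled GABP-KD the median was -0.64 as deposited and -1.24 scaled, while Ace was at 0.40 and -0.076. Of the 5, 0 passed as deposited and 1 scaled, against 0% and 0.0388% of all genes. That 1 was Slc22a30, which fell by 3.08 scaled (SE 0.39, limma adjusted p = 0.0103). Slc22a7 went the other way, at 0.62 as deposited and 0.55 scaled. The 7 endothelial markers summed to 78.4 to 101 FPKM in db/m-veh and 137 to 215 in db/m-GABP-OE, and to 34.7 to 67.3 and 70.5 to 120 in the db/db libraries labelled vehicle and knockdown. Much of these sums was Plvap, with means of 53.7, 114, 32.3 and 65.5 FPKM in that order. With GABP-OE the median log2 fold change of the 7 was 0.50 against 0.38 for all genes, or 0.085 against 0.044 scaled, and 0 passed. No marker of either list was at 0 in all 12 libraries, and the part of segment or endothelial makeup in the level of Ace was not tested.

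**Figure D1:**
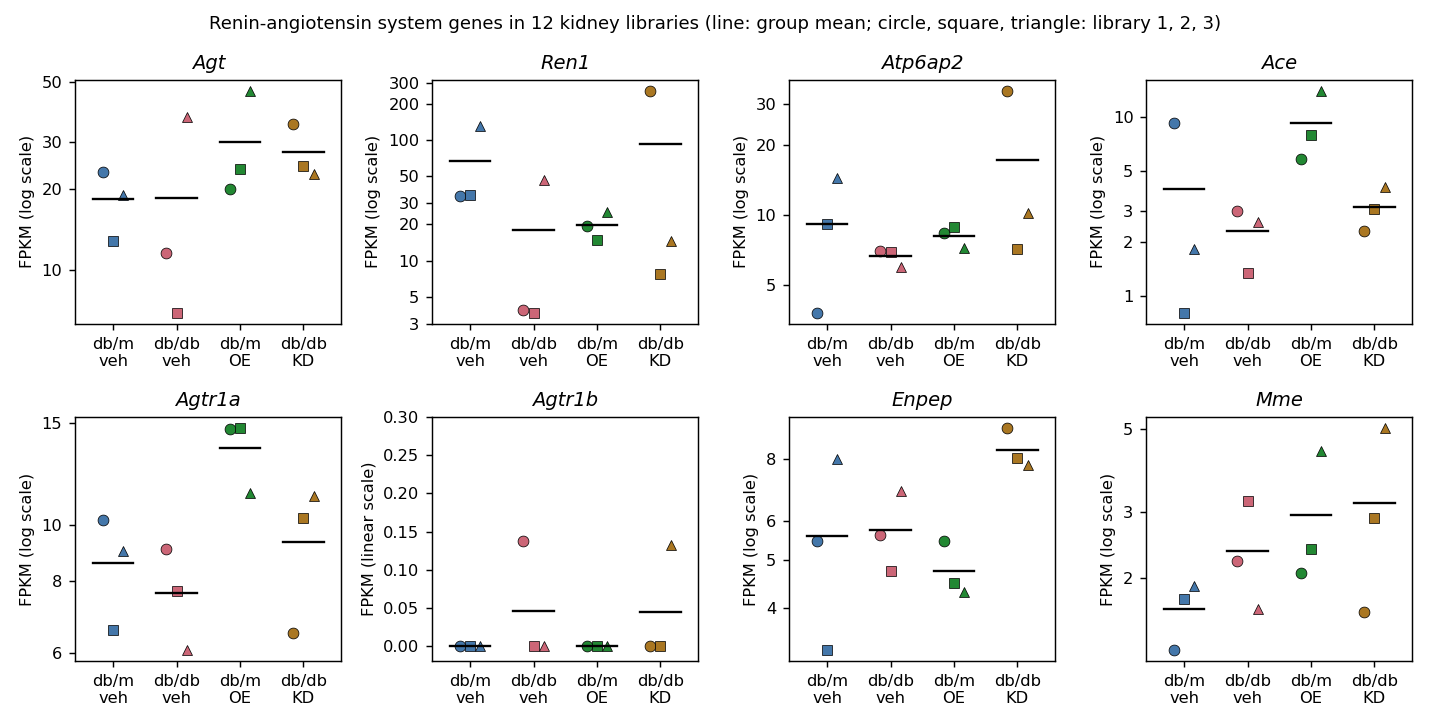
FPKM of the 8 genes in each of the 12 libraries (points, 3 per group, shapes for libraries 1 to 3) with the group mean (line), on log axes except for Agtr1b. Single libraries stand far above their group for Ren1, at 256 FPKM in db/db-GABP-KD 1 and 131 in db/m-veh 3, while Agtr1a stays between 6.07 and 14.7.

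Agtr1a (ENSMUSG00000049115, chromosome 13, 30336441 to 30382867, plus strand) encodes the main type 1 angiotensin receptor of mouse kidney. It read 10.2, 6.58 and 9.03 FPKM in db/m-veh, 9.10, 7.69 and 6.07 in db/db-veh, 14.6, 14.7 and 11.4 in db/m-GABP-OE and 6.50, 10.3 and 11.2 in db/db-GABP-KD. As deposited it varied the least of the tested genes of the system, with a highest library only 2.42 times the lowest. After median of ratios this was 3.83 times, against 2.80 for Enpep. The GABP-OE libraries were all above the db/m-veh libraries as deposited, but after median of ratios they read 11.6, 11.3 and 8.59 against 10.5, 8.02 and 8.37, and the groups overlapped. Agtr1b (ENSMUSG00000054988, chromosome 3, 20314473 to 20367177, minus strand), the second type 1 receptor gene, was at 0 in 10 of the 12 libraries and at 0.137 FPKM in db/db-veh 1 and 0.132 in db/db-GABP-KD 3, which is 2 fragments in each. A count of 0 was taken to allow up to 3 fragments, or 0.144 to 0.206 FPKM depending on the library. Its two-sided 95% limit was somewhat higher, at 3.69 fragments. The 12 libraries thus cannot be ranked for Agtr1b. The coding regions of the receptor genes are closely similar, and how reads matching both were assigned is not given, so both levels are uncertain to that extent.

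Enpep (ENSMUSG00000028024, chromosome 3, 129269175 to 129332720, minus strand) encodes aminopeptidase A, which removes the first residue of angiotensin II. It read 5.46, 3.27 and 8.03 FPKM in db/m-veh, 5.61, 4.74 and 6.89 in db/db-veh, 5.46, 4.49 and 4.30 in db/m-GABP-OE and 9.26, 8.05 and 7.80 in db/db-GABP-KD. All libraries labelled knockdown were above all db/db-veh libraries as deposited. So scaled, by median of ratios, they read 5.43, 9.10 and 8.54 against 6.10, 9.01 and 8.59, and this order was gone.

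Mme (ENSMUSG00000027820, chromosome 3, 63241537 to 63386030, plus strand) encodes neprilysin, an endopeptidase that cuts angiotensins along with natriuretic peptides. It read 1.29, 1.77 and 1.91 FPKM in db/m-veh, 2.22, 3.22 and 1.66 in db/db-veh, 2.06, 2.40 and 4.36 in db/m-GABP-OE and 1.63, 2.90 and 5.01 in db/db-GABP-KD. The GABP-OE libraries lay just above the db/m-veh libraries as deposited, and overlapped them after median of ratios. Per exon length, which for Mme is 11542 bases over 8 transcripts, it was the lowest or second lowest of the tested genes in every group. Both peptidases are also made by proximal tubule cells, whose 7 markers of the first segments had sums between 271 and 1061 FPKM in the lean vehicle group, 183 and 599 in db/db-veh, 432 and 613 in db/m-GABP-OE, and 335 and 396 in db/db-GABP-KD.

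By mean FPKM, Ren1 led in db/m-veh and db/db-GABP-KD, and Agt in db/db-veh and db/m-GABP-OE. Only in db/m-veh did every Ren1 library lie above every Agt library, and in the other groups the 2 genes overlapped. In db/m-veh the neighbours from Agt down to Mme all overlapped in turn. In db/db-veh the line Agt, Ren1, Agtr1a, Atp6ap2 and Enpep overlapped from step to step and was followed, after a gap, by Mme and Ace. In db/m-GABP-OE gaps separated Ren1 from Agtr1a, and Atp6ap2 from Enpep, with Ace at 9.32 ± 4.27 FPKM (SD, n = 3) at rank 4. In db/db-GABP-KD the order from Ren1 to Enpep overlapped throughout, with Mme and Ace below, and Agtr1b was last in all groups.

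The spread between libraries of a group set Ren1 apart from nearly all genes. Its within-group SD was 1.75 on the log2(FPKM + 0.5) scale, rank 10 of the 12897 genes tested, whose median SD was 0.438. After median of ratios it was 1.52 (rank 14), and without db/db-GABP-KD 1 it was 1.19 (rank 30). Ace followed with 0.86, Atp6ap2 with 0.74 and Agt with 0.73, all above the median of all genes. Mme had 0.48, also above that median, Enpep 0.34 and Agtr1a 0.30. After median of ratios Mme had 0.69, above Agt at 0.63 and Atp6ap2 at 0.60. The receptor and aminopeptidase genes were thus the steadiest of the system as deposited, although the SD of Agtr1a was 0.52 after median of ratios, where db/db-GABP-KD 1 became its lowest library at 3.81. Without that library it was 0.29.

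**Figure D2:**
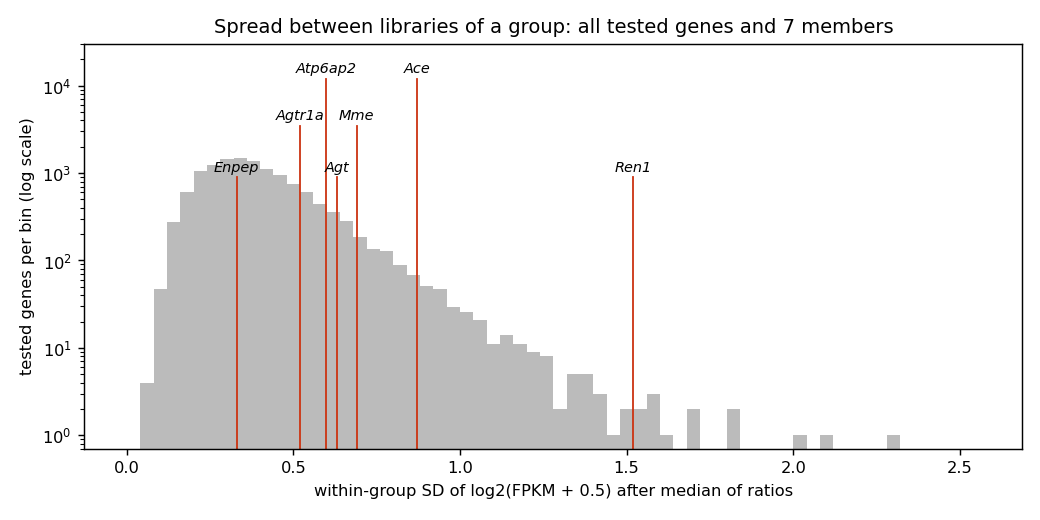
Number of tested genes (log axis) by their within-group SD of log2(FPKM + 0.5) after median of ratios, with the 7 tested genes of the system as red lines. Ren1, at 1.52, lies in the far tail, Ace at 0.87, and Enpep at 0.33 lies below the median of 0.369.

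The first comparison set the diabetic vehicle group beside the lean one and asks how diabetic kidney differs from lean kidney. None of the 7 tested genes passed limma at an adjusted p under 0.05, a mark that 0.093% of all tested genes reached. Renin showed the largest difference, with a mean 0.270 times that of db/m-veh and a log2 fold change of -2.52 (SE 1.05, limma adjusted p = 0.36). The ratio of means was 0.0570 without db/db-veh 3 and 0.519 without db/m-veh 3, and the log2 fold change ranged from -3.67 to -1.89 as single libraries were left out. Renin was the 1 of 7 with an unadjusted p under 0.05, a mark reached by 11.5% of all genes, and the exact permutation p was 0.3. Scaled by median of ratios, the value was -2.16, with a 95% interval of -4.23 to -0.10 (limma adjusted p = 0.39). The remaining 6 genes lay between -0.29 (Agt) and 0.39 (Mme), and 0 of the 7 separated the groups without overlap, where 1.46% of all genes did so upward and 14.4% downward. Over the 7 the median log2 fold change was -0.19, close to the -0.24 of all genes. After median of ratios Agt, Ace, Agtr1a and Atp6ap2 changed sign, to between 0.080 (Agt) and 0.20 (Agtr1a), and 0 of the 7 passed, where limma called 0.171% of all genes.

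The second comparison set the db/m-GABP-OE libraries beside the lean vehicle group and asks how the libraries labelled GABP overexpression differ in lean kidney. Again 0 of the 7 passed, while limma called 1.9% of all tested genes as deposited and 0.209% after median of ratios. Ace had the lowest adjusted p, with a log2 fold change of 1.57 (SE 0.56, limma adjusted p = 0.18), or 1.18 when scaled by median of ratios (limma adjusted p = 0.70). Without db/m-veh 1, the lean library with Ace and S3 markers at GABP-OE levels, Ace passed with a log2 fold change of 2.40 (SE 0.45, limma adjusted p = 0.0108). That fit called 271 of 12819 genes. It leaves out the lean library highest for Ace itself, so a larger difference was bound to follow. Over all alternatives run the adjusted p of Ace ranged from 0.0108 to 0.70, and Ace passed in no other. It was also the 1 of 7 with an unadjusted p under 0.05, reached by 15.1% of all genes.

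Renin was lower in the GABP-OE libraries. Its mean was 0.298 times that of db/m-veh, with all 3 libraries below all 3 controls, a log2 fold change of -1.45 (SE 1.05, limma adjusted p = 0.52) and an exact permutation p of 0.1, the smallest that 3 against 3 libraries allow. Without db/m-veh 3 the ratio of means was 0.573 and the log2 fold change -0.82, the weakest of the leave-outs, which reached -1.78. Of all genes, 0.923% had GABP-OE libraries entirely below the controls as deposited and 4.7% after median of ratios, where Ren1 remained separate at a log2 fold change of -1.88 (limma adjusted p = 0.74). The 2 genes entirely above the controls, Agtr1a at 0.64 and Mme at 0.63 (limma adjusted p = 0.42 and 0.45), shared this with 30.4% of all genes and overlapped the controls after scaling, where 9.72% of all genes lay entirely above. Agt was at 0.64, Atp6ap2 at 0.02 and Enpep at -0.14. The median of the 7 was 0.63 against 0.38 for all genes as deposited, and 0.21 against 0.04 after median of ratios.

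The third comparison set the db/db-GABP-KD libraries beside the diabetic vehicle group and asks how the libraries labelled GABP knockdown, in which Gabpa was not lower, differ in diabetic kidney. None of the 7 passed, and limma called 0 of all 12897 genes (0%), although 1839 had an unadjusted p under 0.05 and 5 (0.0388%), none of them among the 7, passed after median of ratios. All 7 log2 fold changes were above 0, as were those of 86.4% of all genes. Atp6ap2 came lowest in adjusted p, with a log2 fold change of 0.99 (SE 0.52, limma adjusted p = 0.35). Without db/db-GABP-KD 1 it was 0.35, or 0.062 without that library after median of ratios. Atp6ap2 and Enpep, at 0.52 (SE 0.35, limma adjusted p = 0.42), were entirely above their controls, as were 17.3% of all genes, and after median of ratios both overlapped, at 0.41 and -0.050, where 4.63% of all genes lay entirely above. Ren1 had the largest value, 1.74 (SE 1.05, limma adjusted p = 0.38), and it was 0.24 without db/db-GABP-KD 1, or -0.039 without that library after median of ratios. The 0 of 7 with an unadjusted p under 0.05 compares with 14.3% of all genes. With median of ratios scaling only Ren1, Agt and Atp6ap2 stayed above 0, and the median of the 7 was -0.050 against 0.00 for all genes.

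**Figure D3:**
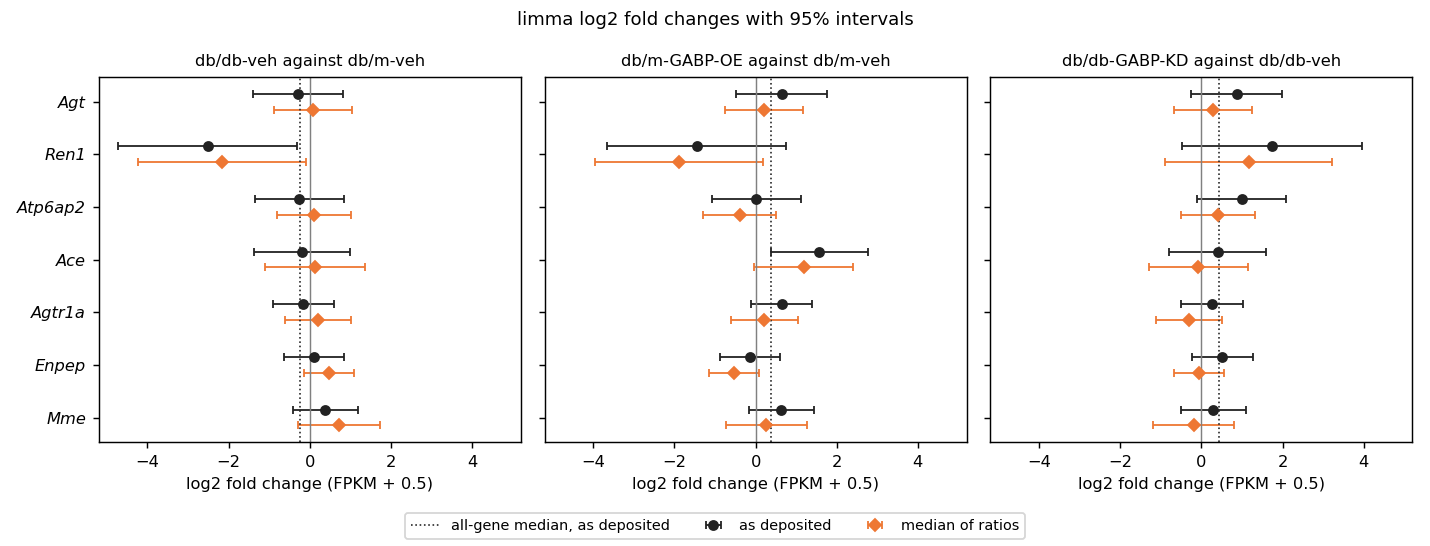
Log2 fold changes of the 7 tested genes with 95% intervals from limma in the 3 comparisons, as deposited (black circles) and after median of ratios (orange diamonds), with the median of all genes as a dotted line. Most intervals span 0, those clear of it at one or both scalings being Ren1 in db/db-veh and Ace with GABP-OE as deposited, and neither passed after adjustment.

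Whether the change in libraries labelled GABP-OE differed from that in libraries labelled GABP-KD was tested as the difference of the 2 changes. Of the 7 genes 0 passed at either scaling, against 0.132% of all genes as deposited and 0.0775% after median of ratios. Ren1 had the largest difference, -3.19 (SE 1.48, limma adjusted p = 0.89), being lower with GABP-OE and higher in the mean with the label GABP-KD, and it ranged from -4.34 to -1.69 as single libraries were left out. Ace followed at 1.17 (SE 0.80, limma adjusted p = 1.00). The intervals were wide, from -6.32 to -0.06 for Ren1 and from -0.51 to 2.86 for Ace.

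The wider pathway was followed through 3 more lists. None of their tested genes passed limma in either direction in any of the 4 comparisons, as deposited or after median of ratios: 0 of 9 other angiotensin peptidases and receptors (16 listed), 0 of 5 regulators of the angiotensin receptor (5 listed) and 0 of 7 genes of the aldosterone arm (7 listed). Agtr2, the type 2 receptor, had 1 fragment in all 12 libraries together, and Mrgprd and Ctsg had 0. Mas1, a receptor for an angiotensin fragment, was at 0 to 0.459 FPKM. Of these receptors none reached the level needed for a test.

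Among these peptidases, Klk1 had the largest differences in the db/db comparisons. It read 781, 309 and 793 FPKM in db/m-veh, 518, 1150 and 1025.5 in db/m-GABP-OE and 1087, 289 and 455 in db/db-GABP-KD, beside the db/db-veh values given with Ren1. Its log2 fold change was -1.86 in db/db-veh (SE 0.67, limma adjusted p = 0.30) and 1.72 in the libraries labelled GABP-KD (limma adjusted p = 0.34). Scaled by median of ratios these were -1.48 (limma adjusted p = 0.34) and 1.11 (limma adjusted p = 0.81). Anpep, aminopeptidase N, followed Ace in having db/m-veh 1 among its high libraries, at 20.3, 5.96 and 8.10 FPKM in db/m-veh and 13.5, 15.7 and 25.2 with GABP-OE (log2 fold change 0.78, limma adjusted p = 0.43, and 0.36 scaled). Unlike for Ace, db/db-GABP-KD 3 also lay among the GABP-OE libraries, at 16.4 FPKM. Scaled, db/db-veh 3 did so as well, at 14.6. The others named by size of change were Thop1 (-0.69), Ctsa (-0.59) and Prcp (-0.52) in db/db-veh, Prcp (0.56) and Lnpep (0.50) with GABP-OE and Lnpep (0.67) and Prcp (0.53) with the label GABP-KD. Scaled, the same values were -0.45, -0.22 and -0.28, then 0.19 and 0.19, then 0.23 and 0.10. The medians of the 9 were -0.52, 0.41 and 0.40 in the 3 comparisons, against -0.24, 0.38 and 0.42 for all genes.

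**Figure D4:**
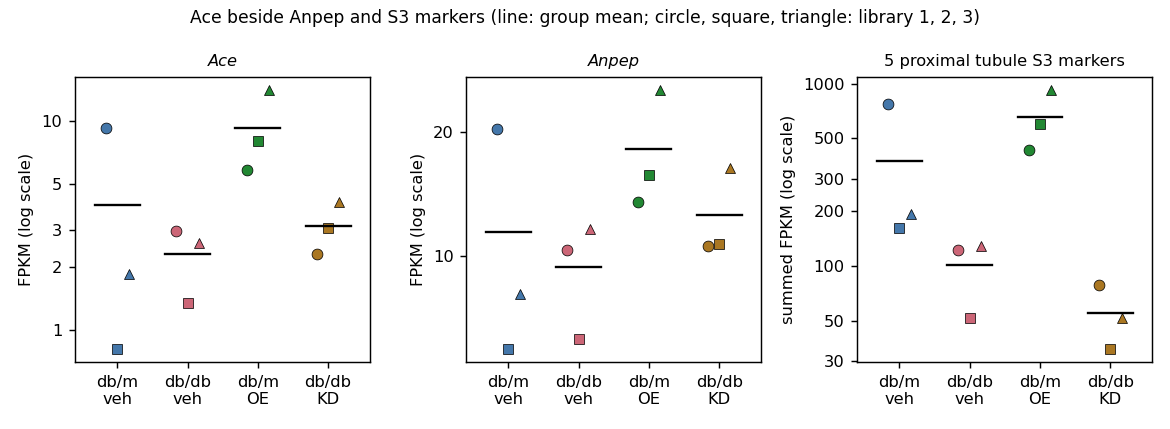
FPKM of Ace and Anpep and the summed FPKM of 5 proximal tubule S3 markers in each library (points, shapes for libraries 1 to 3, log axes) with group means (lines). In each panel db/m-veh 1, the blue circle, lies with the GABP-OE libraries, at 9.29 and 20.3 FPKM and a sum of 775. For Anpep db/db-GABP-KD 3, at 16.4 FPKM, lies among them too.

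The receptor regulators and the aldosterone arm gave smaller or less ordered differences. Agtrap, a protein that promotes internalization of the type 1 receptor, had a log2 fold change of -0.96 in db/db-veh (SE 0.38, limma adjusted p = 0.34), and Rgs2, a brake on the receptor's G protein, one of -0.76, which became -0.64 and -0.46 when scaled. Arap1 was at 1.13 with the label GABP-KD (limma adjusted p = 0.34, and 0.62 scaled), with 9.70 FPKM in db/db-GABP-KD 1 against 2.86 and 2.95 in the other two. Rgs5 was at -0.66 in db/db-veh (-0.29 scaled) and 0.73 in the libraries labelled GABP-KD (0.14 scaled), and Rgs4 at 0.55 there (0.18 scaled). In the aldosterone arm Tsc22d3, which encodes GILZ, a protein induced by steroid hormones, read 12.6, 8.78 and 27.0 FPKM with GABP-OE against 6.80, 4.12 and 4.56 in db/m-veh. Its log2 fold change of 1.43 (SE 0.46) had a limma adjusted p of 0.13, the lowest of the 3 lists, and 0.39 after median of ratios. Hsd11b2, which protects the mineralocorticoid receptor from glucocorticoids, was at -1.04 in db/db-veh (limma adjusted p = 0.54), and the sodium channel subunits Scnn1a and Scnn1b at -0.88 and -0.31. Scaled, these 3 were at -0.67, -0.53 and 0.043, so that Scnn1b changed sign. In the libraries labelled GABP-KD Scnn1b was at 1.10 (limma adjusted p = 0.34), Scnn1g at 0.64 and the kinase Sgk1 at 0.69, where the median of all genes was 0.42, and scaled they were at 0.54, 0.14 and 0.10. The mineralocorticoid receptor gene Nr3c2 was at 0.42 with GABP-OE, and 0.15 scaled. Of 5 markers of the adrenal cortex, where aldosterone is made, 4 were at 0 in all 12 libraries, and the highest sum of the 5 was 0.789 FPKM.

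**Figure D5:**
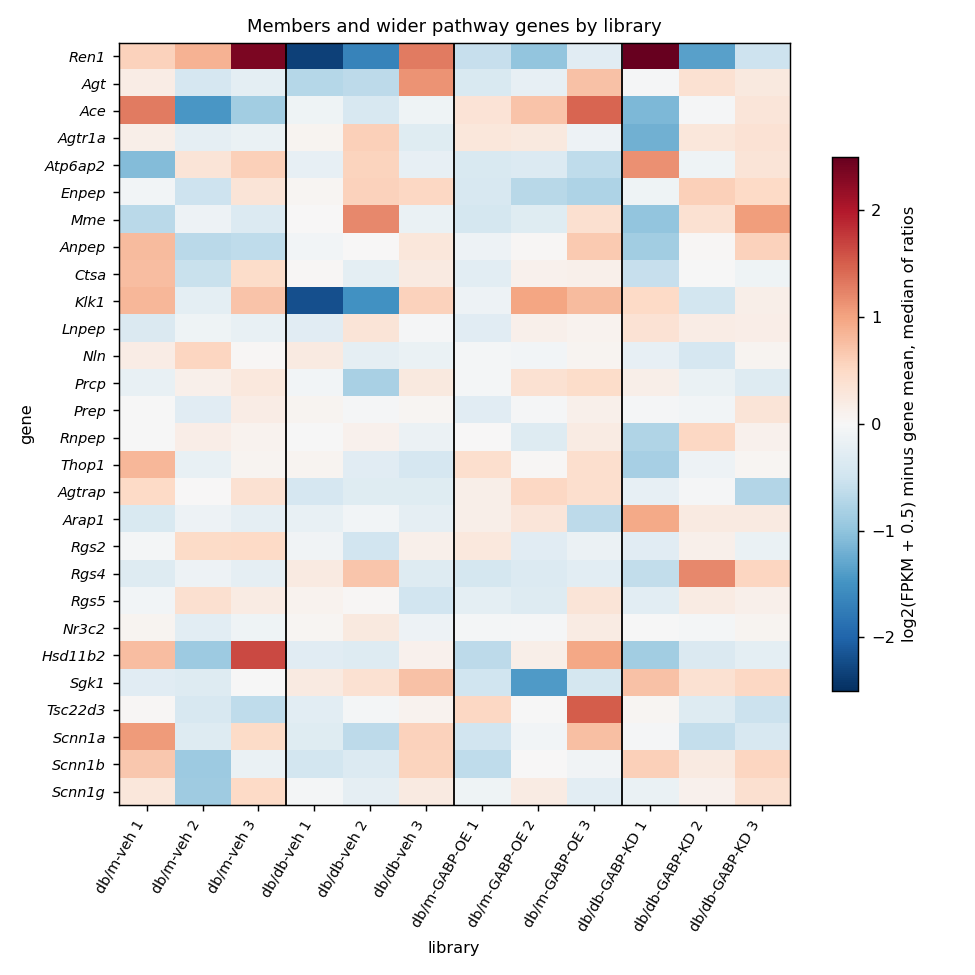
Difference of each gene from its mean over the 12 libraries, in log2(FPKM + 0.5) after median of ratios (colour, limited to 2.5 either way), for 28 genes of the system and its wider pathway (rows) in each library (columns, groups parted by black lines). Ren1, in the top row, shows the strongest colours, dark red in db/m-veh 3 and db/db-GABP-KD 1 and dark blue in db/db-veh 1, and Klk1 is also dark blue in db/db-veh 1.

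For the 3 genes with the most varied profiles the most similar genes were found by the root mean square difference of log2(FPKM + 0.5) profiles, each centred on its own mean, after median of ratios over the 12 libraries and 8891 genes. Nearest to Ren1 were Cyp4a12b (0.68), Mgst1 (0.73) and Gstp3 (0.75), where the median gene was at 1.55. Nearest to Ace were Bmp4 (0.34), Fam217a (0.36) and Slc5a8 (0.37), with a median of 0.93. Nearest to Mme were Mmd (0.27), Spop (0.29) and Hspa13 (0.30), with a median of 0.74.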

How the data were processed

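Kidney poly(A) RNA of 12 pooled mouse libraries was sequenced in pairs (Illumina, per the labels' protocols). The values are FPKM as the authors deposited them, with HTSeq and GRCm39 named, without versions, in the submitters' processing notes. The sources used here do not give the aligner, the annotation or whether counting used strand. Symbols, exon lengths and coordinates came from GENCODE M21 (GRCm38), promoters from RefSeq (GRCm38.p6). With those lengths 98.0% to 98.2% of values above 0 per library came out as whole fragments (tolerance 0.05), which gave the fragment counts. Count limits cover counting error only.

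limma 3.58.1 in R 4.3.3 was fitted to log2(FPKM + 0.5) over 12 libraries and 12897 genes, with 1 mean per group, a variance trend, two-sided tests and Benjamini-Hochberg adjustment over all genes (threshold 0.05). Fold changes on this scale understate the change of low genes. The fit was tested on simulated data. Exact permutation tests used log2 values. Median of ratios used 5884 genes above FPKM 1 in every library. The other alternatives were pseudocounts of 0.1 and 1, no filter, a filter of FPKM 1, no trend, a replicate block, voom on fragments, fits of only the groups compared, and each library left out. The fit that joins median of ratios with dropping db/db-GABP-KD 1 was added after the data were seen.

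All 8 genes are named, and of each wider list up to 4 measured genes with the largest fold change in a comparison, or any called. Similar genes are the nearest 3 for the 3 most varied profiles, at a mean FPKM of at least 1, leaving out predicted, mitochondrially encoded and sex-linked genes. A gene of the wider lists is not reported here and was left out of them. Members, lists and markers were chosen with earlier results of these data known. Other steps ran in Python 3.11.15, with scipy 1.17.1 for tests, numpy 2.4.6 and pandas 2.3.3 for tables and matplotlib 3.10.9 for figures.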

Additional observations from a re-analysis of the deposited data

How the results depend on the processing

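Of 609 alternative values for the 28 log2 fold changes, 578 kept their direction and side of the threshold, 30 changed sign and 1 passed the threshold. That 1 was Ace with GABP-OE without db/m-veh 1, a fit that called 271 of 12819 genes. The number of renin-angiotensin genes called with GABP-OE thus ranged from 0 to 1 as libraries were left out, and was 0 in every other setting and comparison. Median of ratios gave, for the diabetic vehicle group over the lean one, Agt 0.080, Ace 0.13, Agtr1a 0.20 and Atp6ap2 0.10, for GABP-OE Atp6ap2 -0.39, and for GABP-KD Ace -0.076, Agtr1a -0.31, Enpep -0.050 and Mme -0.20. With db/db-GABP-KD 1 left out as well, the values for the other comparisons were those same ones, Ren1 with GABP-KD was -0.039, and the difference of effects for Mme was -0.11. In those results in which leaving out a library changed a sign, the ranges were, for db/db-veh, Agt -0.95 to 0.22, Ace -0.82 to 0.64, Atp6ap2 -0.75 to 0.15 and Enpep -0.21 to 0.38, for GABP-OE Atp6ap2 -0.48 to 0.43 and Enpep -0.45 to 0.14, for GABP-KD Mme -0.055 to 0.63, and for the difference of effects Agt -0.89 to 0.28 and Mme -0.0025 to 0.68. The cause of these sign changes was not tested, and all of them concern values that passed no test.

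The count of all genes called moved more than that of the renin-angiotensin genes. It was 245 with GABP-OE, but 27 after median of ratios, 62 with voom, 62 with a pseudocount of 0.1, 159 with a filter of FPKM 1, 123 without a trend, 604 with only the groups compared and 31 to 559 as libraries were left out. In db/db-veh it was 12, and ranged from 2 to 53. With GABP-KD it was 0, and at most 11, and for the difference of effects 17, and 1 to 40. The replicate numbers do not pair the libraries: of 18 pairs with the same number 4 had a correlation of deviations over 0.1, from -0.45 to 0.35, and 5 of the 12 libraries correlated best with their own number. A replicate block changed no call among the 7 genes, with Ren1 in db/db-veh at -2.52 (limma adjusted p = 0.30) and Ace with GABP-OE at 1.57 (limma adjusted p = 0.16), and gave 277 called genes with GABP-OE and 11 for the difference of effects. A fit of only the groups compared could not be made for the difference of effects, which needs all 4 groups.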
